A study of Homo sapiens with 9 samples.

Results

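The 9 genes described here encode the subunits of hypoxia-inducible factor (HIF) and the proteins that couple it to oxygen: HIF1A, EPAS1, ARNT, ARNT2, VHL, HIF1AN, EGLN1, EGLN2 and EGLN3. They were chosen by gene symbol from the 30673 genes of the deposited FPKM table, with earlier results of these data known. FPKM counts fragments per length of gene and size of library. For the 9 genes that length is the union of all annotated exons. A gene whose main transcripts are much shorter than its union therefore reads low beside others. Of the 9 genes, 8 were also among the 18859 genes of the authors' log2 table, which keeps genes above 0 in every library, and EGLN3 was taken from the FPKM table. RNA was sequenced from ACHN, an adherent human renal cell carcinoma line grown in MEM, in 3 groups of 3 libraries. One group was given 0.1% DMSO, and the other two were given piericidin A, at 25 nM and at 50 nM. Piericidin A is an inhibitor of respiratory complex I. All values come from a single cell line, and the length of treatment and the solvent of the piericidin A groups are not stated in the sources used here.

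HIF is a dimer of an oxygen-regulated alpha subunit, HIF1A or EPAS1, and a constitutive beta subunit, ARNT or ARNT2. When oxygen is present, the prolyl hydroxylases EGLN1, EGLN2 and EGLN3 modify the alpha subunit, VHL then binds it, and a ubiquitin ligase marks it for destruction, while the asparaginyl hydroxylase HIF1AN blocks its coactivators. This control acts mainly on protein, which was not measured here. VHL is best known in the kidney, where its loss is the typical event of clear cell renal carcinoma.

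The core DNA motifs that HIF dimers bind are ACGTG and GCGTG, searched here on both strands. RefSeq promoter sequences (GRCh38.p14, windows of 300 bases that hold the start site) were matched for 7 of the 9 genes, with none for ARNT2 and VHL. Both alpha subunits and EGLN1 are shown because HIF1A rose with piericidin A while EPAS1 and EGLN1 fell. The windows lie at chr14:61695263-61695562 on the plus strand for HIF1A (the first of its 2 listed starts), chr2:46297157-46297456 on the plus strand for EPAS1 and chr1:231422238-231422537 on the minus strand for EGLN1, and capitals mark ACGTG or GCGTG.

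HIF1A: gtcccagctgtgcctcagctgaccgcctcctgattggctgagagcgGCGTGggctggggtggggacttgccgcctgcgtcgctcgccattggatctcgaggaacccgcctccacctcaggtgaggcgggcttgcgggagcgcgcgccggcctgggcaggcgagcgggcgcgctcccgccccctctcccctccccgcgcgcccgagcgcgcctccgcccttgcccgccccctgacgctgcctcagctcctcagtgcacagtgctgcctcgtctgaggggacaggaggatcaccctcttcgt

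EPAS1: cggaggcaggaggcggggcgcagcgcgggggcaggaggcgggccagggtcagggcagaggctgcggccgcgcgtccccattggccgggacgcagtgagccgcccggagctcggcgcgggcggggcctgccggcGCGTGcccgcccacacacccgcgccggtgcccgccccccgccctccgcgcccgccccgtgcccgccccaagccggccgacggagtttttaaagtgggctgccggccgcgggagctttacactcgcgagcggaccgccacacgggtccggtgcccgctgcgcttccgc

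EGLN1: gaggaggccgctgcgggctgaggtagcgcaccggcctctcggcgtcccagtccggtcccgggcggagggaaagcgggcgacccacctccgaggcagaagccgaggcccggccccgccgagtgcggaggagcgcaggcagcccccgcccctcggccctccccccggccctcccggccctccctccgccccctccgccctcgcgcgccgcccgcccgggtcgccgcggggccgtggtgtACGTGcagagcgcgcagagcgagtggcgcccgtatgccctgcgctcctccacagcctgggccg

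Counted from the start site, the motif begins at -204 in HIF1A (GCGTG), at -117 in EPAS1 (GCGTG) and at -13 in EGLN1 (ACGTG). The first of the 2 listed EGLN2 starts has ACGTG on both strands, at -49 and -48, overlapping in 1 palindrome. Neither motif was found in the windows of ARNT, HIF1AN and EGLN3, nor in the second windows of HIF1A and EGLN2. Of 35116 RefSeq promoter windows of the same length, 48.4% hold at least 1 of the motifs on either strand, 21.4% ACGTG and 36.5% GCGTG, so a match is common.

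Recovered fragments, obtained by dividing FPKM times gene length by the smallest step of each library, numbered 24365472 to 29245674 per library. The third 25 nM library stood apart from the other two of its group. Chi-square values per degree of freedom were taken over genes of the authors' log2 table, leaving out those with few fragments in the pair. They were 15.7 and 17.8 against the third 25 nM library and 2.36 between the others. Within DMSO they were 1.75 to 2.39, and within 50 nM 4.77 to 7.88. Among renal epithelial markers PAX8 measured 66.0 to 93.5 FPKM and PAX2 11.9 to 17.4 FPKM over the 9 libraries, and CDH6 was not analysed here. The leukocyte markers ITGAM and CD14 reached at most 0.286 FPKM, PTPRC and CD3E were not analysed here, and the 4 endothelial markers reached at most 0.0199 FPKM.

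Piericidin A moved most of the HIF system's transcripts, and in different directions. Against DMSO, HIF1A rose at both doses, while EPAS1, ARNT, ARNT2, HIF1AN and EGLN1 fell at both. VHL fell at 25 nM and rose at 50 nM, and EGLN2 rose at 50 nM. At 25 nM, 7 of the 8 tested genes were called by limma at an adjusted p under 0.05, 1 higher and 6 lower, where 52.0% of all 15541 tested genes were called. At 50 nM, 8 of 8 were called, 3 higher and 5 lower, where 60.7% of all tested genes were called. The libraries of the 2 groups did not overlap for 8 of 8 genes at either dose, beside 62.6% of all tested genes at 25 nM and 70.4% at 50 nM. With so many genes called in the whole table, the counts alone say little about these genes. EGLN2 passed the filter on low values only through the piericidin A groups. It therefore adds no weight to the counts of called or of non-overlapping genes. The median log2 fold change of the 8 genes, EGLN2 included, was -0.43 at 25 nM and -0.41 at 50 nM, beside 0.02 and 0.00 over all tested genes. That background is not matched for gene length. The 200 tested coding genes nearest in length to each of the 8 had medians from -0.02 to -0.31 at 25 nM and from -0.11 to -0.28 at 50 nM. The comparisons of the doses with DMSO share the 3 DMSO libraries.

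**Figure D1:**
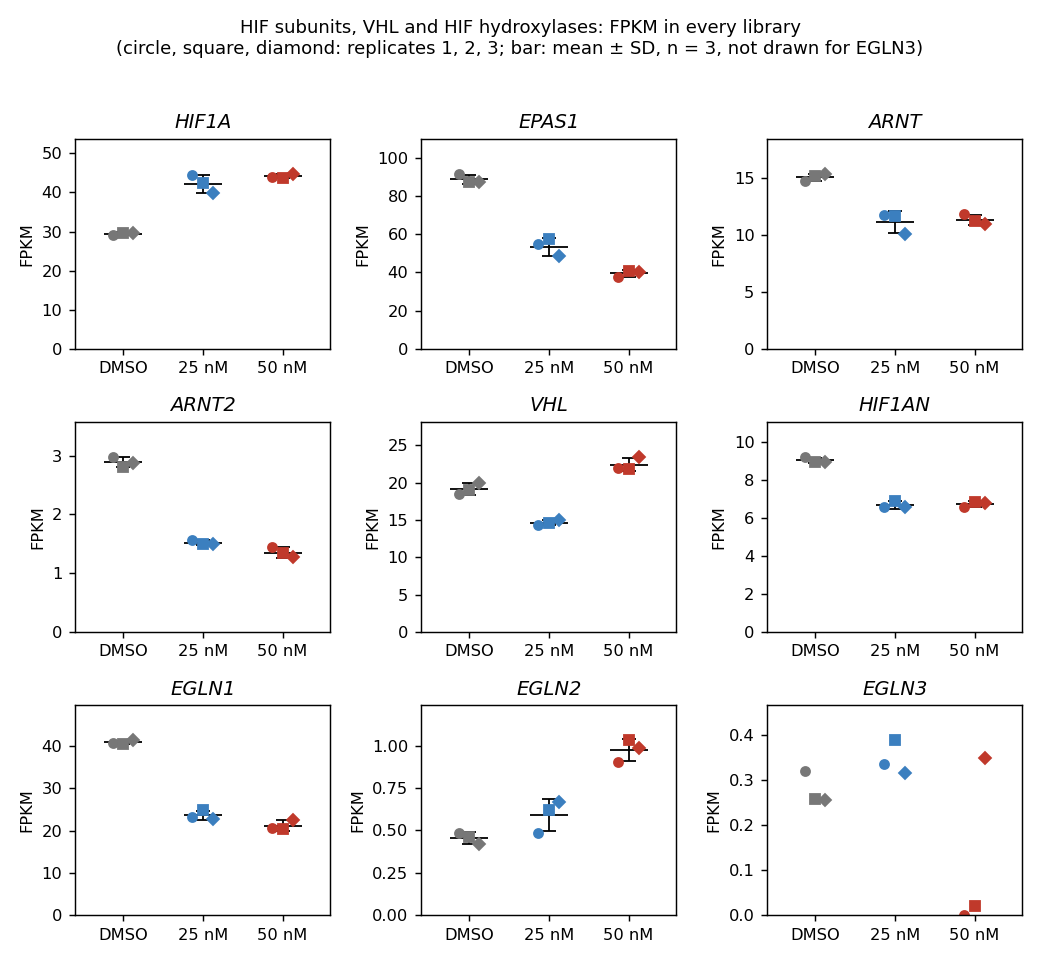
FPKM of the 9 genes in each library (points), by group in the order DMSO, 25 nM and 50 nM, with the mean and SD of 3 libraries as a bar except for EGLN3, each panel with its own axis from 0. HIF1A lies higher and EPAS1, ARNT, ARNT2, HIF1AN and EGLN1 lie lower in all 6 piericidin A libraries than in the 3 DMSO libraries, VHL dips at 25 nM only, and EGLN3 is at 0 in a 50 nM library.

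The alpha subunits changed in opposite directions. HIF1A (ENSG00000100644, chr14:61695513-61748259, hg38, plus strand) measured 29.04, 29.60 and 29.63 FPKM in DMSO, 44.4, 42.5 and 39.8 FPKM at 25 nM and 43.8, 43.8 and 44.7 FPKM at 50 nM. All 6 piericidin A libraries lay above all DMSO libraries, and the dose groups overlapped each other. The log2 fold change, taken on log2(FPKM + 0.1) throughout, was 0.52 at 25 nM (SE 0.04, limma adjusted p = 2.79e-05), a position above 85.8% of tested genes. At 50 nM it was 0.58 (SE 0.04, limma adjusted p = 6.45e-06), above 80.1% of tested genes. Between the doses the 50 nM level did not differ from the 25 nM level past the threshold, with a log2 difference of 0.06 (95% interval -0.03 to 0.16, limma adjusted p = 0.284). That difference was 0.16 to 0.18 and called (limma adjusted p = 0.015 to 0.036) when libraries were scaled by fragment totals, with limma-voom on recovered fragments, or relative to genes of like length.

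EPAS1, the alpha subunit also known as HIF-2 alpha (ENSG00000116016, chr2:46293667-46386703, plus strand), measured 91.4, 87.1 and 87.3 FPKM in DMSO, 54.7, 57.3 and 48.3 FPKM at 25 nM and 37.5, 40.6 and 40.4 FPKM at 50 nM. The 3 groups did not overlap at any point, and the level stepped down with dose. Against DMSO it fell by 0.73 on the log2 scale at 25 nM (SE 0.06, limma adjusted p = 3.34e-05), below all but 5.77% of tested genes. At 50 nM it fell by 1.16 (SE 0.06, limma adjusted p = 1.51e-06), below all but 1.25% of tested genes. From the comparison of the doses themselves, 50 nM was lower than 25 nM by a log2 difference of -0.43 (SE 0.06, limma adjusted p = 0.00142).

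The balance of the alpha transcripts was taken as a ratio within each library. The FPKM ratio of HIF1A to EPAS1 was 0.318, 0.340 and 0.339 in DMSO, 0.812, 0.742 and 0.824 at 25 nM and 1.17, 1.08 and 1.11 at 50 nM. In FPKM, EPAS1 exceeded HIF1A in every DMSO and 25 nM library, and HIF1A exceeded EPAS1 in every 50 nM library. Which subunit is higher rests on exon unions as gene lengths, 5151 bases for HIF1A and 7302 bases for EPAS1. The mean ratio was 0.792 ± 0.0445 at 25 nM against 0.332 ± 0.0125 in DMSO, and 1.12 ± 0.0464 at 50 nM against the same DMSO value (SD, n = 3 each). Each of the 3 pairs of groups was fully separated, which in an exact two-sided permutation test over 20 splits gives p = 0.1, the smallest this design allows, or 0.129 adjusted over the 9 ratio comparisons made.

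**Figure D2:**
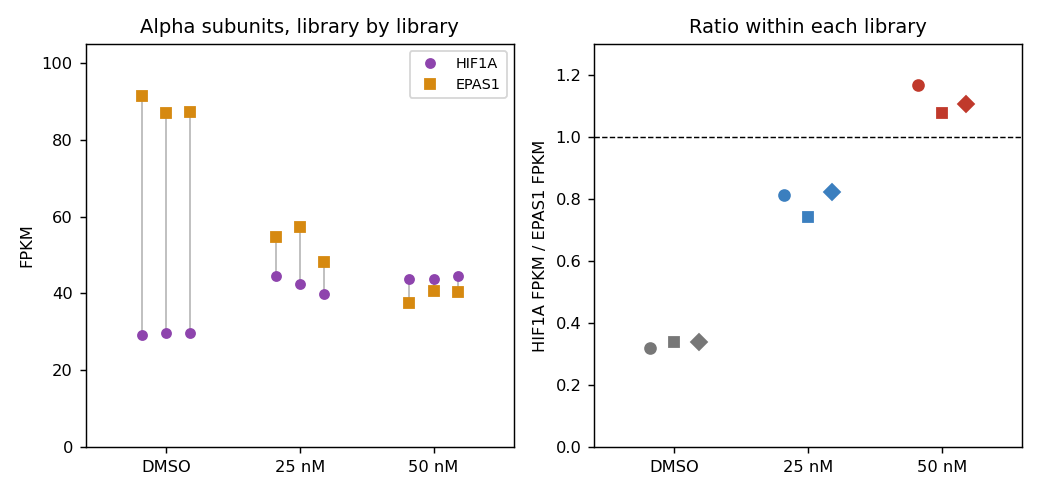
HIF1A and EPAS1 in each library and their ratio, by group in the order DMSO, 25 nM and 50 nM. The ratio of HIF1A to EPAS1 FPKM is between 0.318 and 0.340 in DMSO, between 0.742 and 0.824 at 25 nM and between 1.08 and 1.17 at 50 nM.

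Antisense genes overlap HIF1A, and whether the libraries keep strand is not stated. HIF1A-AS1 shares 117 exon bases with HIF1A (2.27% of its exons) on the opposite strand and measured 0.0525 to 0.283 FPKM in DMSO, 0.127 to 0.237 FPKM at 25 nM and 0.0564 to 0.177 FPKM at 50 nM. HIF1A-AS2 lies within HIF1A without sharing exon bases and measured 2.03 to 3.09 FPKM in DMSO, 1.48 to 2.98 FPKM at 25 nM and 1.01 to 3.63 FPKM at 50 nM. Neither level approached that of HIF1A, and HIF1A-AS2 was not called in any of the 3 comparisons. HIF1A-AS3, EPAS1-AS1 and EGLN3-AS1 were not analysed here.

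Both beta subunits fell. ARNT, the general dimer partner of the alpha subunits and of the aryl hydrocarbon receptor (ENSG00000143437, chr1:150809705-150876768, minus strand), measured 14.7, 15.2 and 15.3 FPKM in DMSO, 11.8, 11.7 and 10.1 FPKM at 25 nM and 11.8, 11.2 and 11.0 FPKM at 50 nM. Every piericidin A library lay below every DMSO library, and the dose groups overlapped. The log2 fold change was -0.43 at 25 nM (SE 0.06, limma adjusted p = 0.000487) and -0.41 at 50 nM (SE 0.06, limma adjusted p = 0.000454). The 50 nM and 25 nM levels differed by 0.02 (95% interval -0.12 to 0.17, limma adjusted p = 0.798).

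ARNT2, its paralog with a narrower tissue range that is best known in brain and kidney (ENSG00000172379, chr15:80404350-80597937, plus strand), was lower in level and fell further. It measured 2.97, 2.81 and 2.88 FPKM in DMSO, 1.56, 1.49 and 1.49 FPKM at 25 nM and 1.44, 1.33 and 1.27 FPKM at 50 nM. The groups did not overlap. The log2 fold change was -0.89 at 25 nM (SE 0.07, limma adjusted p = 2.54e-05) and -1.05 at 50 nM (SE 0.07, limma adjusted p = 4.71e-06), below all but 3.47% and 1.86% of tested genes. The step from the lower to the higher dose, -0.16, missed the threshold (95% interval -0.32 to 0.01, limma adjusted p = 0.127) although each 50 nM library lay below each 25 nM library. The FPKM ratio of ARNT to ARNT2 was 4.95, 5.41 and 5.33 in DMSO, 7.54, 7.83 and 6.76 at 25 nM and 8.18, 8.42 and 8.64 at 50 nM. No pair of groups overlapped in this ratio, with an exact permutation p = 0.1 for each pair (0.129 adjusted over the 9 ratio comparisons).

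VHL, the substrate receptor that binds the hydroxylated alpha subunit (ENSG00000134086, chr3:10141008-10152220, plus strand), went opposite ways at the 2 doses. It measured 18.5, 19.1 and 20.01 FPKM in DMSO, 14.3, 14.6 and 14.9 FPKM at 25 nM and 21.96, 21.8 and 23.4 FPKM at 50 nM. All 25 nM libraries lay below and all 50 nM libraries above the DMSO range. The log2 fold change against DMSO was -0.39 at 25 nM (SE 0.04, limma adjusted p = 0.000145) and 0.22 at 50 nM (SE 0.04, limma adjusted p = 0.00217). The direct comparison gave 0.61 higher at 50 nM than at 25 nM (SE 0.04, limma adjusted p = 0.000157).

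The ligase that VHL joins has 4 further core subunits, all tested. At 25 nM 3 rose and 1 fell, where 26.3% of all tested genes were higher and 25.8% lower, and at 50 nM 2 rose and 1 fell, where 29.2% were higher and 31.5% lower. RBX1, the RING subunit, had log2 fold changes of 0.54 at 25 nM and 0.39 at 50 nM, and elongin B (TCEB2 in the files) had 0.47 and 0.32, all called. Elongin C (TCEB1) rose by 0.39 at 25 nM and had 0.16 at 50 nM (limma adjusted p = 0.0794). The scaffold CUL2 fell at both doses, by 0.30 at 25 nM and by 0.56 at 50 nM.

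Of the prolyl hydroxylases, EGLN1 had by far the highest FPKM as deposited, although the EGLN2 value is uncertain for the reasons given with it. EGLN1, also called PHD2 and regarded as the main oxygen sensor of the HIF system (ENSG00000135766, chr1:231363751-231425044, minus strand), measured 40.7, 40.5 and 41.4 FPKM in DMSO, 23.1, 24.9 and 22.7 FPKM at 25 nM and 20.5, 20.4 and 22.6 FPKM at 50 nM. No library of any group reached the range of another. Against DMSO the log2 fold change was -0.79 at 25 nM (SE 0.05, limma adjusted p = 7.66e-06) and -0.95 at 50 nM (SE 0.05, limma adjusted p = 1.47e-06), below all but 4.72% and 2.64% of tested genes. The further step of -0.16 at 50 nM against 25 nM was called by a small margin (SE 0.05, limma adjusted p = 0.0445), and it was not called under 15 of 21 alternatives, whose adjusted p ranged from 0.0161 to 0.443.

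EGLN2, or PHD1 (ENSG00000269858, chr19:40798996-40808433, plus strand), was close to the filter. It measured 0.483, 0.460 and 0.417 FPKM in DMSO, 0.486, 0.618 and 0.668 FPKM at 25 nM and 0.906, 1.03 and 0.983 FPKM at 50 nM, from 79 to 176 fragments per library. The lowest 25 nM library lay just above the highest DMSO library, and the 50 nM libraries lay clear of both groups. The log2 fold change against DMSO was 0.31 at 25 nM (SE 0.17, limma adjusted p = 0.15) and 0.96 at 50 nM (SE 0.17, limma adjusted p = 0.00101). It was 0.44 at 50 nM with a pseudocount of 1 in place of 0.1. The level is uncertain: the readthrough gene RAB4B-EGLN2 on the same strand, not analysed here, covers 2012 exon bases of EGLN2. These are 30.6% of the 6577 exon bases behind its FPKM, and 95.7%, 93.6% and 71.3% of its 3 transcripts marked as principal in GENCODE 29, so reads of either could be counted in EGLN2 or left out. Those 3 transcripts hold 2102, 2150 and 2821 exon bases, far fewer than 6577. The FPKM of EGLN2 would read low if they carry most of its reads, which was not tested.

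EGLN3, or PHD3, itself a well-known HIF target (ENSG00000129521, chr14:33924231-34462774 in GENCODE 29, minus strand), had the lowest mean FPKM in each group. It measured 0.321, 0.259 and 0.256 FPKM in DMSO and 0.336, 0.389 and 0.315 FPKM at 25 nM. At 50 nM it was listed at 0 in replicate 1, at 0.0209 FPKM in replicate 2 and at 0.350 FPKM in replicate 3, from 0, 4 and 70 fragments. The 3 fragments that a count of 0 allows correspond to 0.0158 FPKM in replicate 1, for counting error only. The 50 nM libraries thus disagreed with each other more than any other group of this gene. Of 4285 genes listed at 0 in replicate 1 of 50 nM, EGLN3 was 1 of 29 with at least 0.2 FPKM in replicate 3 and in every DMSO and 25 nM library. Replicate 2, where EGLN3 was also low, was left out of this condition. EGLN3 did not pass the filter and was not tested with the others; a limma fit with no filter gave -1.10 at 50 nM against DMSO (adjusted p = 0.14) and 0.24 at 25 nM (adjusted p = 0.814).

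EGLN3 made up 0.773%, 0.627% and 0.609% of the summed EGLN FPKM in DMSO, 1.40%, 1.50% and 1.33% at 25 nM and 0%, 0.0976% and 1.46% at 50 nM. All 25 nM libraries exceeded all DMSO libraries (exact permutation p = 0.1, adjusted 0.129), while EGLN1, the bulk of the sum, was lower there. The 50 nM libraries spanned the DMSO range (exact permutation p = 1), and the 50 nM and 25 nM libraries overlapped (exact permutation p = 0.3).

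HIF1AN, the asparaginyl hydroxylase also called FIH (ENSG00000166135, chr10:100529072-100559998, plus strand), measured 9.21, 8.97 and 8.96 FPKM in DMSO, 6.56, 6.92 and 6.57 FPKM at 25 nM and 6.57, 6.86 and 6.78 FPKM at 50 nM. Both doses lay below DMSO and overlapped each other. The log2 fold change was -0.43 at 25 nM (SE 0.04, limma adjusted p = 6.09e-05) and -0.42 at 50 nM (SE 0.04, limma adjusted p = 3.47e-05), with 0.01 between 50 nM and 25 nM (95% interval -0.08 to 0.11, limma adjusted p = 0.852). HIF1AN has the longest exons of the 9 genes, 13950 bases, and the 200 tested coding genes nearest to it in length had a median log2 fold change of -0.31 at 25 nM and -0.28 at 50 nM. Relative to that median, its log2 fold change was -0.12 at 25 nM (limma adjusted p = 0.0371) and -0.14 at 50 nM (limma adjusted p = 0.0175). By the same measure ARNT, of 6516 bases, was at -0.22 at 50 nM (limma adjusted p = 0.014). NDUFB8, a complex I subunit gene on the opposite strand, shares 325 exon bases with HIF1AN (2.33% of its exons).

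**Figure D3:**
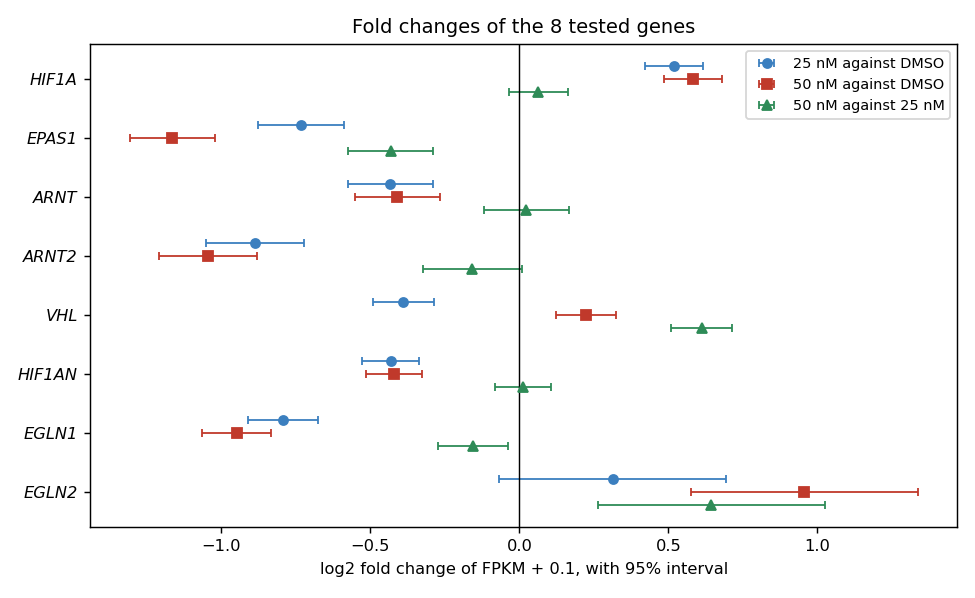
Log2 fold changes of the 8 tested genes (points) with 95% intervals of the limma fit, for 25 nM against DMSO, 50 nM against DMSO and 50 nM against 25 nM from top to bottom within each gene. Against DMSO, HIF1A lies right of 0 at both doses (0.52 and 0.58), EPAS1, ARNT, ARNT2, HIF1AN and EGLN1 lie left of 0 at both, VHL changes side (-0.39 and 0.22), and the interval of EGLN2 at 25 nM includes 0.

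Ordered by FPKM, the DMSO cells held EPAS1, EGLN1, HIF1A, VHL, ARNT, HIF1AN, ARNT2, EGLN2 and EGLN3, and the ranges of neighbours in this order did not overlap. The order rests on exon unions as gene lengths, and the place of EGLN2 in it is uncertain. At 25 nM HIF1A stood above EGLN1, and at 50 nM HIF1A stood first, followed by EPAS1, VHL and EGLN1. The ranges of VHL and EGLN1 overlapped at 50 nM, and those of no other neighbours overlapped in any of the 3 groups. Without the third 25 nM library, the 25 nM log2 fold changes against DMSO were 0.56 for HIF1A, -0.66 for EPAS1, -0.36 for ARNT, -0.88 for ARNT2, -0.40 for VHL, -0.42 for HIF1AN and -0.77 for EGLN1, and all 7 genes were called.

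Between the doses, 4 of the 8 tested genes were called at 50 nM against 25 nM, VHL and EGLN2 higher and EPAS1 and EGLN1 lower, where 33.5% of all tested genes were called. The dose groups did not overlap for these 4 and ARNT2, 5 of 8 genes, beside 45.4% of all tested genes. The count was 2, VHL and EPAS1, without replicate 1 of 25 nM or without replicate 2 of 50 nM. EGLN2 was 0.64 higher at 50 nM (SE 0.17, limma adjusted p = 0.018), with an adjusted p of 0.0552 and 0.0592 in these fits. It passed the filter on low values only through the piericidin A groups, so it adds no weight to the counts of this comparison.

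**Figure D4:**
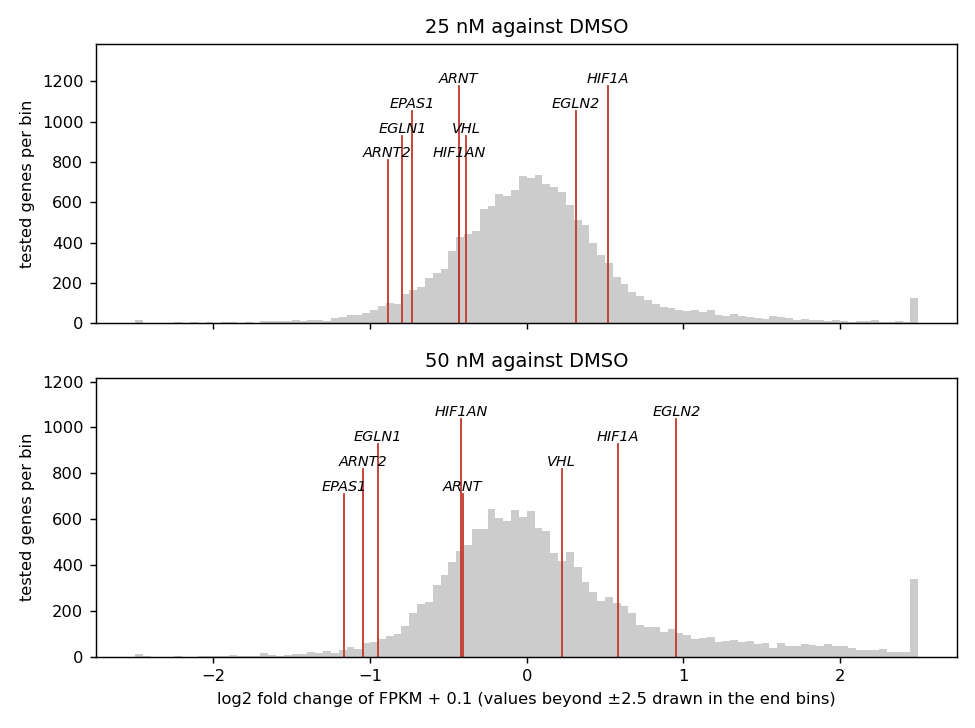
Histograms of the log2 fold change against DMSO of all 15541 tested genes (grey, genes per bin, values beyond ±2.5 in the end bins) at 25 nM and at 50 nM, with the 8 tested genes of the HIF system as red lines whose height has no meaning. HIF1A lies among the higher genes at both doses, EPAS1, ARNT2 and EGLN1 lie toward the lower end, and VHL lies below 0 at 25 nM and above 0 at 50 nM.

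The genes around the 9 were grouped by role. The backgrounds given for their lists were not matched for gene length. Of 4 tested genes for other oxygen-sensing enzymes, 3 fell at both doses, where 25.8% of all tested genes were lower at 25 nM and 31.5% at 50 nM: ADO, a thiol dioxygenase, by 0.72 at 25 nM and 0.90 at 50 nM; KDM6A by 0.61 and 0.58; and KDM5A by 0.48 and 0.41, the last 2 being oxygen-sensitive histone demethylases. The fourth, the transmembrane prolyl hydroxylase P4HTM, had 0.17 at 25 nM (limma adjusted p = 0.122) and rose by 0.29 at 50 nM. HIF3A, a further alpha subunit, was too low to be tested.

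Of 12 genes that act on the stability of HIF or of the hydroxylases, 4 rose and 3 fell at 25 nM, and 3 rose and 5 fell at 50 nM. These counts lie near the background of 52.0% of all tested genes called at 25 nM and 60.7% at 50 nM, and say nothing particular of the list. HSP90AA1, a chaperone that holds HIF1A, averaged 473 FPKM at 25 nM and 427 FPKM at 50 nM, against 152 FPKM in DMSO, with log2 fold changes of 1.63 and 1.48. WSB1, a ubiquitin ligase subunit that targets VHL, had 0.07 at 25 nM (limma adjusted p = 0.37) and rose by 0.82 at 50 nM. OS9, a HIF1A-binding protein, had 0.03 at 25 nM and fell by 0.26 at 50 nM. The median over the list was 0.08 at 25 nM and 0.03 at 50 nM.

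Among the 4 coactivators and their competitors, 3 fell at both doses, beside 25.8% of all tested genes lower at 25 nM and 31.5% at 50 nM. CREBBP fell by 0.69 at 25 nM and 0.58 at 50 nM, and EP300 by 0.55 and 0.47; both are the acetyltransferases that the alpha subunits recruit. CITED2, which competes with the alpha subunits for them, fell by 0.50 and 0.87. Of the 4 tested genes for other dimer partners of ARNT proteins, 2 fell at both doses, against the same background: AHR by 0.62 at 25 nM and 0.74 at 50 nM, and SIM2 by 0.26 and 0.23, while SIM1 had 0.11 and 0.25 (limma adjusted p = 0.717 and 0.362).

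The transcripts that HIF activates were mostly lower, though the list was drawn up with earlier results of these data known. Of 32 tested HIF targets, 24 fell and 2 rose at 25 nM, where 25.8% of all tested genes were lower and 26.3% higher. At 50 nM 32 of 32 fell, where 31.5% of tested genes were lower and 29.2% higher. The median log2 fold change was -0.43 at 25 nM and -0.96 at 50 nM. The carbonic anhydrase gene CA12 averaged 18.3 FPKM at 25 nM and 13.8 FPKM at 50 nM, against 36.4 FPKM in DMSO. NDRG1, a stress-responsive gene, averaged 74.8 FPKM at 25 nM and 39.3 FPKM at 50 nM, against 120 FPKM in DMSO. INSIG2, an ER regulator of sterol synthesis, averaged 21.5 FPKM at 25 nM and 13.2 FPKM at 50 nM, against 33.6 FPKM in DMSO. The 2 targets that rose at 25 nM, named after their values were seen, were DDIT4, an inhibitor of mTOR signalling (0.53), and ADM, which encodes adrenomedullin (0.22). At 50 nM against 25 nM, 31 of the 32 were lower, where 18.8% of tested genes were lower, with a median of -0.59.

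Of 6761 coding genes with a mean of at least 5 FPKM, those whose 9 library values, taken relative to their DMSO mean, lay closest to a gene's own were found by the root mean square difference in log2 units. For EPAS1 they were CDCP1, a membrane glycoprotein (0.0507), KDM3A, a histone demethylase (0.0554), and VEGFA, the angiogenic growth factor (0.0568); KDM3A and VEGFA are also among the 32 HIF targets. For HIF1A they were KMT5A, a histone methyltransferase (0.0495), DNAJB11, an ER co-chaperone (0.0641), and HNRNPA2B1, an RNA-binding protein (0.0658). For EGLN1 they were WBP1L (0.0400), the zinc finger gene ZNF148 (0.0497) and ODC1, the ornithine decarboxylase gene (0.0556). No gene lay as close to EGLN3, for which the nearest were the histone gene HIST1H4C (0.330), ADM (0.521) and the chemokine gene CCL20 (0.580). EGLN3 was at 0 and 0.0209 FPKM in replicates 1 and 2 of 50 nM. A poor match to genes averaging at least 5 FPKM was therefore likely in advance.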

How the data were processed

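RNA of 9 ACHN libraries was sequenced on an Illumina instrument. The submitters' processing notes name hg38, while aligner, counter, annotation, RNA selection and strandedness are not given in the sources used here. A table deposited by the authors under a read count name has 30673 genes, and its values are FPKM. Their second deposited table gives log2 FPKM, without pseudocount, of 18859 of these genes. FPKM times gene length came out as whole fragments, within 0.01, for 100% of these genes. Whether replicates came from separate cultures is not in the labels, so p-values measure only the spread between these libraries.

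Genes reaching 0.5 FPKM in 3 or more libraries (15541) entered limma 3.58.1 (trend, robust; R 4.3.3) on log2(FPKM + 0.1), fitted to all 9 libraries by group alone, Benjamini-Hochberg adjusted over all tested genes; a gene was called, and written as rising or falling, at an adjusted p under 0.05. The pseudocount understates changes of low genes. The fit was also run on simulated data, in which far fewer genes changed than were called here. The outcome of that run is not given and adds no support to the calls. Ratios were compared by exact permutation. Levels are means ± SD (n = 3).

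The 9 genes, the other lists and the tests were chosen with earlier results of these data known. All 9 are named; from other lists, the 3 tested genes with the smallest p at 50 nM against DMSO, 1 of the other direction where those went 1 way, and every subunit of the VHL ligase. Whether replicate numbers pair the libraries is not in the labels. Deviations of same-numbered libraries correlated at -0.0469 to 0.0793 and those of other pairs at -0.11 to 0.0596. Such small values cannot decide the question. Alternatives were pseudocount, filter, scaling, variance model, fragment-based voom, gene length, replicate block, groups in the fit and each library left out. The gene lengths behind FPKM equal GENCODE 29 exon unions for all 9 genes.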

Additional observations from a re-analysis of the deposited data

Results flagged for a closer look

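VHL was set aside for a closer look because its change against DMSO had opposite signs at the 2 doses. The doses differed by 0.61 on the log2 scale at 50 nM against 25 nM (limma adjusted p = 0.000157), with every 25 nM library below the DMSO range and every 50 nM library above it.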

How the results depend on the processing

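The log2 fold changes of the 8 tested genes kept their direction and their side of the threshold in 166 of 167 values under the alternatives at 25 nM against DMSO and in 167 of 167 at 50 nM against DMSO. The exception was EGLN2 at 25 nM, called with limma without trend and robust (adjusted p = 0.0411). At 50 nM against 25 nM, 141 of 167 did so, 17 lost the call, 3 gained it and 6 changed sign. Those that changed sign were near 0: HIF1AN was at -0.0045 relative to genes of like length, -0.0012 without replicate 1 of 25 nM, -0.0002 without replicate 3 of 25 nM and -0.0009 without replicate 2 of 50 nM, and ARNT was at -0.0490 without replicate 3 of 25 nM and -0.0064 without replicate 1 of 50 nM; with each library left out in turn ARNT ranged from -0.0490 to 0.0642 and HIF1AN from -0.0012 to 0.0369. With 1 library left out at a time, 2 to 4 of the 8 genes and 3441 to 5829 of all genes were called at 50 nM against 25 nM, the lowest count of all genes being without replicate 1 of 50 nM. The EGLN3 share of the EGLN sum at 50 nM minus DMSO was 0.109 percentage points without replicate 1 of 50 nM and 0.0603 without replicate 2, against -0.151 with all libraries, over a range of -0.621 to 0.109. The cause of these changes was not tested. Whether replicate numbers pair the libraries is not known. With them as a replicate block, 4587 genes and 3 of the 8 were called at 50 nM against 25 nM. EGLN1 was not called there (limma adjusted p = 0.0761), and the block changed no other call of the 8 genes. Scaling by fragment totals gave 3154 higher and 1358 lower calls at 50 nM against 25 nM, beside 2288 and 2917 as reported, and moved the median of all genes by less than 0.1. EGLN2 could not be tested at a minimum of 1 FPKM, and EGLN3 could not be tested at a minimum of 0.5 FPKM. Depth limits EGLN2 and EGLN3, which rest on at most 176 fragments in any library.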
